A study of Homo sapiens with 12 samples.

Results

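The response to loss of GSTO1 was compared gene by gene between 2 human cancer cell lines, to describe which genes moved alike in both, which moved in opposite directions and which moved in 1 line only. HCT116 came from a carcinoma of the colon, and U-87 MG is a glioblastoma line. In each, GSTO1 KO cells are set against wild type, in 3 RNA-seq libraries per group, 4 groups and 12 libraries in all. Per the labels' protocols, cells that carried Cas9 from a lentivirus under blasticidin selection were given a guide RNA against exon 2 of GSTO1 or a guide with no target, and individual colonies were picked and screened for lost GSTO1 expression. Whether wild type means untreated cells or cells with the control guide, and how many colonies the libraries represent, is not stated, so an effect of the colony and an effect of GSTO1 cannot be told apart. With nothing to show that libraries came from separate cultures, p-values reflect only how far these libraries scatter, which may be technical. HCT116 was sequenced in single reads and U-87 MG in paired reads, both of 50 bp, so line and read layout cannot be told apart either. All 12 libraries were used. Of the 27788 gene symbols counted, 13475 were tested for a difference between the lines and had a mean FPKM (fragments scaled to transcript length and library size) above 0.5 in at least 1 line, and 12239 were tested within each of the lines.

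GSTO1 encodes glutathione S-transferase omega 1, an enzyme that uses glutathione in reduction reactions and removes glutathione from modified proteins. GSTO2, beside it on chromosome 10, encodes a sister enzyme. Cells answer damage and stress partly through p53, which raises genes that halt the cell cycle such as CDKN1A, and a halted cycle is accompanied by lower transcription of the genes for mitosis, many of which are held by the DREAM complex at a promoter element called the CHR. Type I interferon raises antiviral genes through transcription factors, IRF9 among them, that bind the interferon-stimulated response element in their promoters.

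Libraries held between 17814142 and 28097179 counts. No library was a copy of another: within groups, the counts of each pair varied beyond sampling noise (chi-square over its degrees of freedom, 1.49 to 9.77). The highest values, 8.62 and 9.77, were for the third U-87 MG wild-type library against the other two. In HCT116 the third library also stood apart in each group. Pairs with it gave 5.82 and 5.65 in KO, where the remaining pair gave 1.82. In wild type they gave 3.77 and 3.58, where the remaining pair gave 1.49. RNR2, the large ribosomal RNA of mitochondria, took 1.36 to 1.54% of counts in HCT116 KO and 0.981 to 1.06% in wild type, and 0.419 to 0.435% in U-87 MG KO against 0.254 to 0.322%. Its part in the results was not tested. Of 10 epithelial markers, 9 were above 0.5 FPKM in HCT116 and 2 in U-87 MG, while all 7 mesenchymal markers were above it in U-87 MG and 5 of them in HCT116, where their summed FPKM was at most 12.97 against at least 6637 in U-87 MG. Of 6 glial and neural markers only NES was above 0.5 FPKM in U-87 MG, and GFAP, S100B, SOX2, OLIG1 and OLIG2 were below it, so these defining markers of glia were absent or nearly so from U-87 MG. Of 9 leukocyte markers, CSF1R alone was above 0.5 FPKM, in U-87 MG. In such bulk RNA, a lower level per cell and fewer cells that express a gene cannot be told apart.

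GSTO1 itself was low in every KO library of both lines. GSTO1 stood at 17.1, 14.6 and 15.7 CPM in the HCT116 KO libraries against 63.9, 64.7 and 61.4 in wild type, and at 25, 23.8 and 25.2 CPM in the U-87 MG KO libraries against 143, 142 and 117. CPM are counts scaled to the library's total multiplied by its TMM scaling factor, which was computed within each line. No KO library came near a wild-type one, and the KO means were lower by 4.01-fold in HCT116 and 5.43-fold in U-87 MG. The log2 fold change, KO over wild type and given throughout in log2 units with its standard error, was -2.01 ± 0.07 log2 units in HCT116 and -2.44 ± 0.07 in U-87 MG (adjusted p = 6.8e-15 and 7.0e-14). Counts cannot tell intact from mutated transcripts. GSTO2 did not pass the test in either line, with 0.09 ± 0.06 log2 units in HCT116 and 0.46 ± 0.27 in U-87 MG. F3, which encodes tissue factor, the receptor that starts coagulation, fell in both. F3 stood at 28.3, 23.9 and 22 CPM in the HCT116 KO libraries against 74.3, 73.6 and 76.2 in wild type, and at 3.72, 3.03 and 2.82 CPM in the U-87 MG KO libraries against 6.52, 7.4 and 7.1. The groups did not overlap in either line, and the log2 fold change was -1.60 ± 0.07 log2 units in HCT116 and -1.12 ± 0.14 in U-87 MG (adjusted p = 5.8e-13 and 6.2e-07). The wild-type level of F3 was lower in U-87 MG than in HCT116, so the same direction started from unlike levels.

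A gene was called at a Benjamini-Hochberg adjusted p under 0.05 in edgeR's quasi-likelihood test, a fold change above 1.5 and a mean FPKM above 0.5 in the line. In HCT116, 1672 of 14068 genes tested were called (11.9%), 1100 higher (7.82%) and 572 lower (4.07%). In U-87 MG 2227 of 13741 were called (16.2%), 1107 higher (8.06%) and 1120 lower (8.15%). Among the 12239 genes tested in both lines, HCT116 had 857 risen (7.0%) and 477 fallen (3.9%), and U-87 MG 911 risen (7.44%) and 920 fallen (7.52%). Of these, 380 were called in both lines, and 290 moved in the same direction (2.37% of the genes tested in both). They made up 21.7% of the HCT116 calls and 15.8% of the U-87 MG calls. Of the 290, 211 rose in both (1.72%) and 79 fell in both (0.645%). The other 90 moved in opposite directions (0.735%), 6.75% of the HCT116 calls and 4.92% of the U-87 MG calls. Among them 63 rose in HCT116 and fell in U-87 MG (0.515%), and 27 did the reverse (0.221%). As shares of each direction, 24.6% of the genes that rose in HCT116 also rose in U-87 MG, while 16.6% of those that fell in HCT116 also fell in U-87 MG. The background for the gene lists below is 7.0% risen and 3.9% fallen in HCT116, and 7.44% and 7.52% in U-87 MG. For the difference between the lines it is 11.3% in favour of HCT116 and 8.28% in favour of U-87 MG. For the same sign in both lines it is 61.1% (7475 of 12239). The shares of called genes include genes under the FPKM minimum, which could not be called. Of the 12239, 10703 were above it in both lines. Beside the split of 211 higher to 79 lower, limma gave 91 to 57 on log2(FPKM + 1) and 181 to 96 on log2(FPKM + 0.1). Across the 12239 genes the log2 fold changes of the lines had a Pearson r of 0.18 and a Spearman rho of 0.29, which is a description of a weak relation over genes that share their libraries. The lines share no library.

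**Figure D1:**
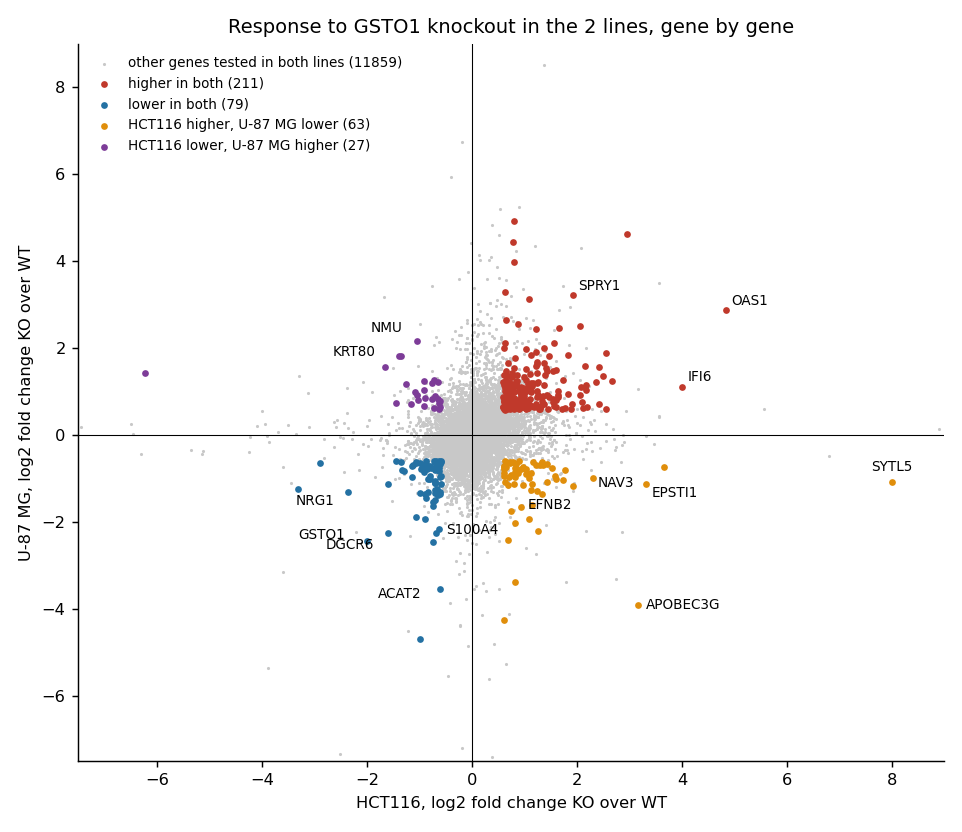
Each point is 1 of the 12239 genes tested in both lines, with its log2 fold change in HCT116 on the x axis and in U-87 MG on the y axis. Coloured points are the 380 genes called in both lines, and most of them, 211 higher and 79 lower, lie in the corners of like direction. The axes run from -7.5 to 9, and 15 genes lie outside them.

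Ranked by the smaller of the 2 changes, among genes with a mean FPKM of at least 2 in each line whose KO and wild-type libraries did not overlap, the 12 genes that rose furthest in both lines were OAS1, PNRC1, TP53INP1, MXD4, DDIT4, HIST1H2AC, TM7SF2, ITGA7, CCNG2, C10orf10, PBXIP1 and C1RL. PNRC1 stood at 43.2, 38.3 and 39.6 CPM in the HCT116 KO libraries against 13.2, 13.7 and 14.7 in wild type, and at 29.9, 26.5 and 27.1 CPM in the U-87 MG KO libraries against 10.3, 9.43 and 10.8. PNRC1 encodes a coactivator of nuclear receptors. Every KO library was higher than every wild-type library of its line, by much the same factor, with 1.54 ± 0.08 log2 units in HCT116 and 1.46 ± 0.09 in U-87 MG (adjusted p = 1.6e-12 and 1.8e-12). MXD4 stood at 71, 64.2 and 75 CPM in the HCT116 KO libraries against 27, 30.9 and 30.9 in wild type, and at 88.3, 96.6 and 93.5 CPM in the U-87 MG KO libraries against 34, 33.2 and 35.7. MXD4 pairs with MAX and opposes MYC, and its log2 fold change was 1.25 ± 0.07 log2 units in HCT116 and 1.44 ± 0.06 in U-87 MG. CCNG2, a cyclin of cells that leave the cycle, rose by 1.24 ± 0.08 log2 units in HCT116 and 1.19 ± 0.09 in U-87 MG. DDIT4, a stress-induced inhibitor of mTOR complex 1, rose by 1.24 ± 0.05 log2 units in HCT116 and 1.69 ± 0.05 in U-87 MG. PIK3R1, the regulatory subunit of phosphoinositide 3-kinase, rose by 1.00 ± 0.07 log2 units in HCT116 and 0.83 ± 0.07 in U-87 MG. ITGA7, a laminin-binding integrin chain, stood 2.33-fold higher in HCT116 KO and 3.0-fold higher in U-87 MG KO, although its level in CPM differed widely between the lines (8.6, 8.4 and 9.01 in HCT116 wild type and 67.5, 70.6 and 61.8 in U-87 MG wild type). LAMB2, a laminin chain, rose by 0.69 ± 0.06 log2 units in HCT116 and 1.20 ± 0.05 in U-87 MG.

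Some of the shared rises differed in size between the lines. TM7SF2, a sterol reductase of cholesterol synthesis, rose by 1.22 ± 0.08 log2 units in HCT116 and 2.44 ± 0.16 in U-87 MG, and PBXIP1, a partner of PBX transcription factors, by 1.13 ± 0.07 log2 units in HCT116 and 1.84 ± 0.05 in U-87 MG. C10orf10, an autophagy regulator now named DEPP1, rose by 2.18 ± 0.13 log2 units in HCT116 and 1.16 ± 0.08 in U-87 MG. C1RL, a serine protease related to complement C1r, rose alike, by 1.12 ± 0.07 log2 units in HCT116 and 1.20 ± 0.08 in U-87 MG. Of 8 replication-dependent and linker histone genes tested in both lines, 4 rose in HCT116, and 5 rose and 1 fell in U-87 MG. Of them 4 rose in both and 3 were called for a difference between the lines, with median log2 fold changes of 0.57 and 1.06 beside -0.01 and 0.00 over all genes. HIST1H2AC rose by 1.23 ± 0.19 log2 units in HCT116 and 1.64 ± 0.13 in U-87 MG, and HIST1H2BD by 1.07 ± 0.13 log2 units in HCT116 and 1.10 ± 0.15 in U-87 MG. Both are core histone genes, read here from polyadenylated RNA. Some of these counts may hold reads of other genes, since the strand setting of the counting is not stated. For C10orf10, 23.3% of exon bases lie over an antisense gene. For C1RL, 12.8% of the 50-base stretches of its transcripts also occur in another locus, for ITGA7 6.15% and for HIST1H2BD 5.43%.

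Of 29 targets of p53 tested in both lines, 12 rose and 1 fell in HCT116 and 10 rose and 1 fell in U-87 MG. Of them 6 rose in both, 1 moved in opposite directions, and 4 were called for a difference in favour of HCT116 and 2 in favour of U-87 MG. The median log2 fold change was 0.48 in HCT116 and 0.32 in U-87 MG, and for 18 the 95% interval of the difference between the lines lay within 1.5-fold either way. Over all genes 54.3% had such an interval (6647 of 12239), so the count for p53 targets was near the background. CDKN1A stood at 633, 655 and 701 CPM in the HCT116 KO libraries against 308, 309.8 and 318 in wild type, and at 319.8, 328 and 338 CPM in the U-87 MG KO libraries against 158, 162 and 163. CDKN1A encodes p21, the cyclin-dependent kinase inhibitor. It rose 2.13-fold and 2.04-fold, with no overlap in either line, and the difference of the log2 changes was 0.07 (95% interval -0.05 to 0.20). TP53INP1, a p53-induced protein of cell death and autophagy, rose by 1.39 ± 0.05 log2 units in HCT116 and 1.37 ± 0.07 in U-87 MG, with a difference of 0.03 (95% interval -0.15 to 0.21). BBC3, the cell death protein PUMA, rose by 1.06 ± 0.08 log2 units in HCT116 and 1.18 ± 0.16 in U-87 MG. SESN2, a sestrin that restrains mTOR signalling, rose by 1.42 ± 0.07 log2 units in HCT116 and 0.92 ± 0.07 in U-87 MG. GDF15, a secreted stress factor, was the exception of opposite direction, at 0.87 ± 0.06 log2 units in HCT116 and -0.80 ± 0.14 in U-87 MG. GDF15 stood at 180.3, 188 and 212 CPM in the HCT116 KO libraries against 105, 99 and 114 in wild type, and at 8.12, 7.55 and 6.27 CPM in the U-87 MG KO libraries against 11.8, 10.9 and 15.9.

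Genes of mitosis were lower in both lines, with fewer past the threshold in U-87 MG. Of 48 genes of the G2 and M phases, 24 fell in HCT116 and 13 in U-87 MG, 7 in both, and 47 had the same sign in the lines. Over all genes tested in both, 3.9% fell in HCT116, 7.52% in U-87 MG and 0.645% in both, and 61.1% had the same sign. The median log2 fold change was -0.57 in HCT116 and -0.43 in U-87 MG, and for 43 of the 48 the interval of the difference lay within 1.5-fold. CDC20 stood at 210.5, 210.4 and 221 CPM in the HCT116 KO libraries against 397, 415 and 445 in wild type, and at 158, 174 and 169 CPM in the U-87 MG KO libraries against 287, 288 and 279.9. CDC20 activates the ubiquitin ligase that starts anaphase. KO libraries were lower than wild type without overlap, with -0.97 ± 0.04 log2 units in HCT116 and -0.77 ± 0.04 in U-87 MG (adjusted p = 5.8e-13 and 7.4e-13). CENPE, the kinesin of the kinetochore, fell with -1.29 ± 0.08 log2 units in HCT116 and -0.84 ± 0.07 in U-87 MG. DLGAP5, a protein of the mitotic spindle, fell with -0.80 ± 0.05 log2 units in HCT116 and -1.0 ± 0.05 in U-87 MG. HAUS7, a subunit of the augmin complex of the spindle, fell with -0.81 ± 0.08 log2 units in HCT116 and -0.94 ± 0.09 in U-87 MG. Genes of DNA replication had lower medians in both lines, -0.37 and -0.36 over 45 genes, and 41 of the 45 had the same sign (61.1% of all genes). Of them 5 passed the fold threshold as lower in HCT116 and 5 in U-87 MG. Of 4 replication genes called for a difference between the lines, 3 lie on chromosomes 13, 14 and 22, whose genes as a set were lower in U-87 MG KO (described at the end). MCM5, a helicase subunit, had -0.38 ± 0.05 log2 units in HCT116 and -1.58 ± 0.05 in U-87 MG, and CDC45, a partner in the same helicase, -0.30 ± 0.06 log2 units in HCT116 and -1.45 ± 0.07 in U-87 MG, both on chromosome 22, and POLE2, a polymerase subunit on chromosome 14, -0.52 ± 0.07 log2 units in HCT116 and -1.60 ± 0.08 in U-87 MG.

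The letters TTTGAA, the core of the CHR, were searched on both strands of RefSeq's promoter windows, which run from 250 bases before to 50 after the start of transcription. They occurred in 15.4% of all 27305 windows, in 9.38% of those of genes tested in both lines, in 16 of 63 windows of genes that fell in both (25.4%) and in 27 of 39 windows of G2 and M genes (69.2%). The CDC20 window is shown because CDC20 fell in both lines, and the choice was made after its values were seen. It lies at chr1:43358731-43359030 on the plus strand of GRCh38.p14 and is written from 5′ to 3′ along the gene, with the matches, which begin 178 and 65 bases before the start, in capitals.
CDC20: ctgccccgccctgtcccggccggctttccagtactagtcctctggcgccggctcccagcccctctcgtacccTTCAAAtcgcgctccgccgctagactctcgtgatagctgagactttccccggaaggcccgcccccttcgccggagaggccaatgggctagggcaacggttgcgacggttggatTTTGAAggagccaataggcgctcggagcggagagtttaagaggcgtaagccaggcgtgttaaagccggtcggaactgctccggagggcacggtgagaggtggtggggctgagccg
A match of letters describes the window and is no evidence of binding.

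The remaining shared falls were of mixed function. SCARA3, a scavenger receptor, fell in both. SCARA3 stood at 44.2, 40.7 and 45.4 CPM in the HCT116 KO libraries against 92.6, 95.2 and 102 in wild type, and at 78.4, 81.7 and 79.3 CPM in the U-87 MG KO libraries against 150.3, 161 and 155. The KO and wild-type libraries were apart in each line, with -1.15 ± 0.06 log2 units in HCT116 and -0.96 ± 0.05 in U-87 MG. NT5DC2, a protein of the 5′-nucleotidase family, fell with -0.84 ± 0.05 log2 units in HCT116 and -1.02 ± 0.04 in U-87 MG. EEF2KMT, which methylates elongation factor 2, fell with -0.78 ± 0.07 log2 units in HCT116 and -0.75 ± 0.10 in U-87 MG. THBS1, the matrix glycoprotein thrombospondin 1, fell in both but further in U-87 MG, with -0.75 ± 0.07 log2 units in HCT116 and -2.46 ± 0.06 in U-87 MG and a difference of 1.73 (95% interval 1.53 to 1.92). NRG1, a ligand of ERBB receptors, fell further in HCT116 on the count scale, with -2.36 ± 0.20 log2 units in HCT116 and -1.32 ± 0.09 in U-87 MG, while limma on log2(FPKM + 1) put the difference at 0.0227. ACAT2, a thiolase of sterol synthesis, fell by 1.52-fold in HCT116 and by 11.7-fold in U-87 MG. On the 3 chromosomes that were low in U-87 MG KO lie 21 of the 79 genes. Among them, GCAT, a mitochondrial enzyme of threonine breakdown on chromosome 22, fell with -0.99 ± 0.07 log2 units in HCT116 and -1.34 ± 0.11 in U-87 MG. DGCR6, also on chromosome 22, was under 1 CPM in every library although its mean FPKM was 6.36 in HCT116 and 10.8 in U-87 MG. Its counts gave -1.60 ± 0.49 log2 units in HCT116 and -2.26 ± 0.49 in U-87 MG, the HCT116 value being -2.21 without the first KO library, and limma on log2(FPKM + 1) did not call it in HCT116 (-0.06). FERMT2, kindlin-2, which activates integrins, fell with -0.84 ± 0.07 log2 units in HCT116 and -1.32 ± 0.05 in U-87 MG. KIAA0391, the protein subunit of mitochondrial RNase P now named PRORP, fell with -0.91 ± 0.06 log2 units in HCT116 and -0.86 ± 0.07 in U-87 MG. Both are on chromosome 14, as is DLGAP5, and all 3 fell in HCT116 too, where that chromosome's median was 0.02. Several of these genes share sequence with other loci: 39% of the stretches of KIAA0391, 34.8% for HAUS7, 29.1% for EEF2KMT, 18% for DGCR6 and 7.78% for CDC20. Antisense genes cover 31.4% of the exon bases of EEF2KMT, 17.2% of ACAT2 and 7.36% of NT5DC2.

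The size of a shared change was tested as the interaction in 1 fit of all 12 libraries, HCT116 minus U-87 MG. Of the 290 genes that moved the same way, 125 had a 95% interval of the difference within 1.5-fold, 79 were called as different in size, and 86 were neither. Of the 211 that rose, 58 differed in size, 32 of them larger in HCT116 and 26 larger in U-87 MG. OAS1 rose most unevenly of the 12 leading genes, with a difference of 1.97 (95% interval 1.36 to 2.57) and an adjusted p of 1.9e-06. TM7SF2 differed the other way, by -1.21 (95% interval -1.56 to -0.85), although limma on log2(FPKM + 1) put it at -0.506, under the fold threshold, and the difference of C10orf10 at 0.361. On that scale F3 (-0.826), ITGA7 (-0.717) and LAMB2 (-0.604) were called as different in size. By counts, TP53INP1, CCNG2 and C1RL had intervals around 0 that stayed within 1.5-fold. All 90 genes called in opposite directions were also called by the interaction. Their selection for opposite changes past 1.5-fold in the same libraries nearly fixed this, so it is no separate support.

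**Figure D2:**
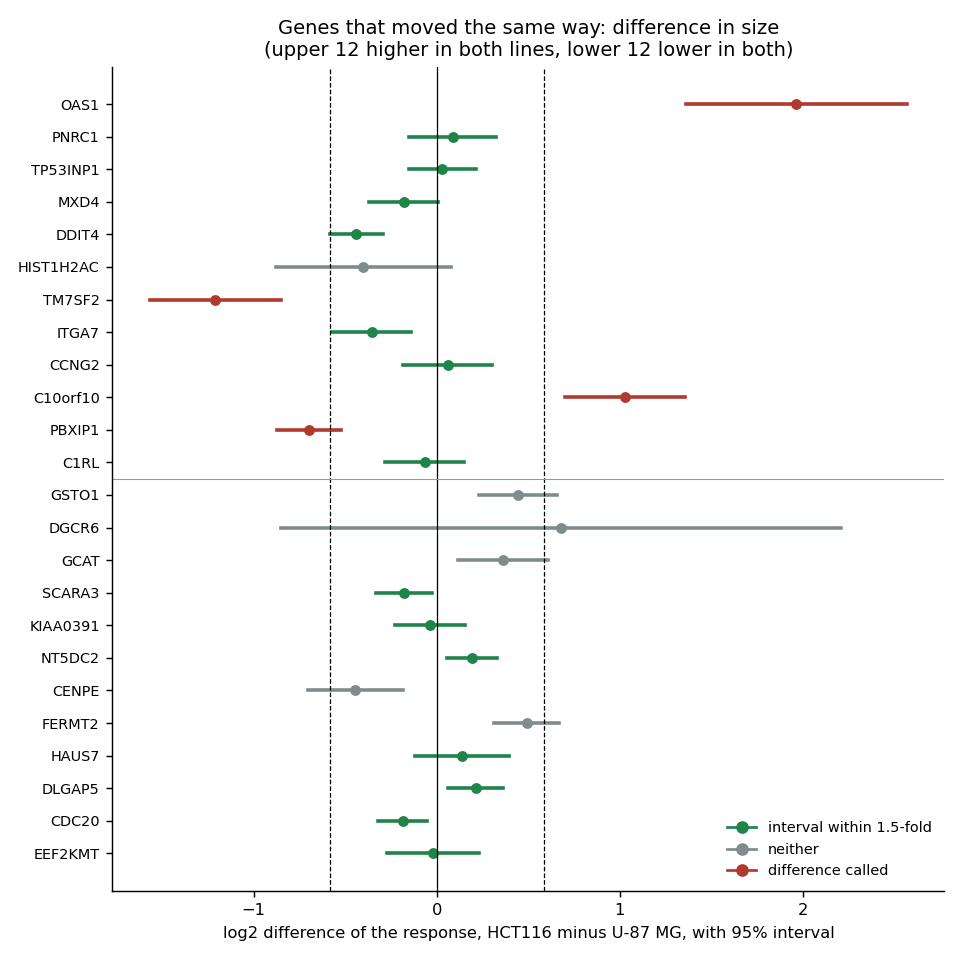
Points give the log2 difference of the KO response, HCT116 minus U-87 MG, with its 95% interval, for the 12 leading genes that rose in both lines (above the grey line) and the 12 that fell. Dashed lines mark 1.5-fold either way. The intervals of PNRC1, TP53INP1, CCNG2 and CDC20 lie between them, while those of OAS1, TM7SF2 and C10orf10 lie wholly beyond them. An interval between the lines may still exclude 0, as that of CDC20 does (-0.32 to -0.05).

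Interferon-stimulated genes had the largest median difference between the lines of all the lists described. Of 49 tested in both, 32 rose in HCT116, against 9 that rose and 6 that fell in U-87 MG. The median log2 fold change was 1.43 in HCT116 and 0.23 in U-87 MG. The interaction was called in favour of HCT116 for 36 of the 49, where 11.3% of all genes tested in both were called in that direction. For 17 of the 32 genes that rose in HCT116, the U-87 MG change had a 95% interval within 1.5-fold of no change. Rises in both were called for 7 genes, OAS1, IFI6, IFIT2, ISG15, HERC5, PARP14 and DDX60, and opposite directions for 4, IFITM3, USP18, SP110 and EPSTI1. The 5 promoter windows shown here carry a sequence of the response element's form, GAAA, any 2 bases and GAAA, and are shown since they come from genes that shared the rise (IFI6, ISG15 and HERC5) and from genes that split between the lines (EPSTI1 and IFITM3). They are RefSeq sequences of GRCh38.p14, 5′ to 3′ along the gene, with matches on either strand in capitals.
IFI6: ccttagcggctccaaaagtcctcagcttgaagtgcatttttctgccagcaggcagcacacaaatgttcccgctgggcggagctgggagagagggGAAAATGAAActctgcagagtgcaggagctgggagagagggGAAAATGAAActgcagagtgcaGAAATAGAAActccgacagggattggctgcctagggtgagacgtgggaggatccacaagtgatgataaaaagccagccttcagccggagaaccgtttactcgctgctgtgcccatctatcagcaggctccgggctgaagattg
ISG15: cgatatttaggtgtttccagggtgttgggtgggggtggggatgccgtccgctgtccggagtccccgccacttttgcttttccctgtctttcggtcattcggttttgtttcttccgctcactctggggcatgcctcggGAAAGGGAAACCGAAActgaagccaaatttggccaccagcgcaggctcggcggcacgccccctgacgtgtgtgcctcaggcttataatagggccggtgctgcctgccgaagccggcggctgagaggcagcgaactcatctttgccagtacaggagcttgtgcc
HERC5: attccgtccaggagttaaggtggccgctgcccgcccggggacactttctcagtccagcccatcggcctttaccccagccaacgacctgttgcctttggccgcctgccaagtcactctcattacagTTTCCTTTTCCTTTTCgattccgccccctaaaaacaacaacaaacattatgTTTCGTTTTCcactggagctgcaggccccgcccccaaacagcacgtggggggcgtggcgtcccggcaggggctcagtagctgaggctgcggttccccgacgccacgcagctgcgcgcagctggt
EPSTI1: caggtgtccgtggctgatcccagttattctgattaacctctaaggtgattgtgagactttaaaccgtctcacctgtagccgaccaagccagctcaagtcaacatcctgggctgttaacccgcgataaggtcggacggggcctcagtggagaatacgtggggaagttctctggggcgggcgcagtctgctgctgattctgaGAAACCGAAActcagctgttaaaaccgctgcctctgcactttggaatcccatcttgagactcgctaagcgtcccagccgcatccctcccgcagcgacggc
IFITM3: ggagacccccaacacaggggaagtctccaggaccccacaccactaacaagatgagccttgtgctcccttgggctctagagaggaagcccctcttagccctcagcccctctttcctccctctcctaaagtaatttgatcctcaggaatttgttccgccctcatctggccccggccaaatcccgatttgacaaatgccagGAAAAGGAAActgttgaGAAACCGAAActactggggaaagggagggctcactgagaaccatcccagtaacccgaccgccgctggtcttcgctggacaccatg
The windows lie at chr1:27672143-27672442 on the minus strand for IFI6, chr1:1013247-1013546 on the plus strand for ISG15, chr4:88456869-88457168 on the plus strand for HERC5, chr13:42992192-42992491 on the minus strand for EPSTI1 and chr11:320811-321110 on the minus strand for IFITM3. Matches begin 156, 115 and 93 bases before the start in IFI6, 113 and 107 in ISG15, 125, 119 and 74 in HERC5, 50 in EPSTI1 and 52 and 35 in IFITM3, and neighbouring matches in ISG15 and HERC5 overlap. The letters occurred in 3.65% of all 27305 windows, in 2.76% of those of genes tested in both lines, in 28 of 40 windows of listed interferon-stimulated genes (70.0%), in 13 of 161 windows of genes that rose in both lines (8.07%) and in 3 of 46 of those that rose in HCT116 and fell in U-87 MG (6.52%). The windows of OAS1, which rose in both lines, and SP110, which moved in opposite directions, held no such letters.

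IFI6 stood at 148, 146 and 148 CPM in the HCT116 KO libraries against 9.38, 9.67 and 8.26 in wild type, and at 22.4, 22 and 23.5 CPM in the U-87 MG KO libraries against 8.85, 11.1 and 11.9. IFI6 is an antiviral membrane protein. From near-equal wild-type levels it rose 16.1-fold in HCT116 and 2.13-fold in U-87 MG, with 4.01 ± 0.06 log2 units in HCT116 and 1.09 ± 0.10 in U-87 MG and a difference of 2.93 (95% interval 2.69 to 3.16). OAS1 stood at 20.1, 21.2 and 19.4 CPM in the HCT116 KO libraries against 0.988, 0.578 and 0.519 in wild type, and at 9.78, 8.03 and 9.23 CPM in the U-87 MG KO libraries against 1.06, 1.02 and 1.66. OAS1 makes the second messenger that activates RNase L, and it rose by 4.84 ± 0.15 log2 units in HCT116 and 2.88 ± 0.18 in U-87 MG. IFIT2, which binds viral RNA, rose by 2.66 ± 0.10 log2 units in HCT116 and 1.25 ± 0.14 in U-87 MG, ISG15, the ubiquitin-like modifier, by 1.57 ± 0.06 log2 units in HCT116 and 0.67 ± 0.10 in U-87 MG, and HERC5, its ligase, by 1.18 ± 0.07 log2 units in HCT116 and 0.65 ± 0.07 in U-87 MG. The U-87 MG call of ISG15 rests on the third wild-type library of that line, without which it was 0.57. USP18 stood at 12, 11.1 and 12.8 CPM in the HCT116 KO libraries against 3.95, 4.97 and 4.39 in wild type, and at 5.42, 4.71 and 5.27 CPM in the U-87 MG KO libraries against 10.7, 11.3 and 10.9. USP18 removes ISG15 from proteins and dampens the interferon receptor. The groups were apart in each line in opposite directions, with 1.43 ± 0.12 log2 units in HCT116 and -1.09 ± 0.11 in U-87 MG and a difference of 2.53 (95% interval 2.2 to 2.86). EPSTI1 moved likewise, with 3.32 ± 0.27 log2 units in HCT116 and -1.12 ± 0.23 in U-87 MG, although limma on log2(FPKM + 1) did not call its U-87 MG change (-0.386), nor that of HERC5 (0.577). IFITM3, a restriction factor of virus entry, also moved in opposite directions, with 0.82 ± 0.04 log2 units in HCT116 and -0.77 ± 0.08 in U-87 MG. OAS3, a larger relative of OAS1, rose in HCT116 and did not pass the fold threshold in U-87 MG, with 1.74 ± 0.04 log2 units in HCT116 and -0.39 ± 0.06 in U-87 MG and a difference of 2.14 (95% interval 2.01 to 2.27). USP18 lies on chromosome 22 and EPSTI1 on chromosome 13. Other loci hold 23.1% of the stretches of USP18, 16.4% for IFI6, 15.4% for IFITM3 and 8.92% for IFIT2.

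Interferon signalling and nucleic acid sensors gave a partly shared picture. Of 26 tested in both lines, 12 rose in HCT116 and 7 in U-87 MG, and 4 rose in both. DHX58, a helicase of the RIG-I family, rose by 2.49 ± 0.23 log2 units in HCT116 and 1.36 ± 0.15 in U-87 MG (larger in HCT116 by counts, with a difference of -0.218 by limma on log2(FPKM + 1)), TLR3, the receptor of double-stranded RNA, by 1.77 ± 0.13 log2 units in HCT116 and 0.62 ± 0.10 in U-87 MG, and IRF7, which drives interferon genes, by 2.11 ± 0.10 log2 units in HCT116 and 0.61 ± 0.14 in U-87 MG. The U-87 MG calls of TLR3 and IRF7 were lost when 1 library was left out, TLR3 at 0.58 without the third KO or the first wild-type library and IRF7 at 0.53 without the third wild-type library. On log2(FPKM + 1), limma called neither in U-87 MG (0.442 and 0.418), nor the difference for TLR3 (0.573). IRF9, a transcription factor of the interferon response on chromosome 14, rose in HCT116. IRF9 stood at 79.2, 72 and 81.9 CPM in the HCT116 KO libraries against 17.6, 18.1 and 17.9 in wild type, and at 16.3, 16.1 and 16.9 CPM in the U-87 MG KO libraries against 24.3, 22.1 and 26.3. The U-87 MG KO libraries were the lower ones there, with 2.12 ± 0.07 log2 units in HCT116 and -0.56 ± 0.08 in U-87 MG and a difference of 2.69 (95% interval 2.48 to 2.90). The U-87 MG value was within the fold threshold, and passed it without the second wild-type library (-0.63). DDX58, the RNA sensor RIG-I, had 2.43 ± 0.08 log2 units in HCT116 and -0.29 ± 0.07 in U-87 MG. Overlapping loci share 42.5% of the stretches of DDX58 and 20.1% of those of IRF9.

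Genes of MHC class I and antigen processing also rose more widely in HCT116. Of 20 tested in both, 15 rose in HCT116, against 1 that rose and 2 that fell in U-87 MG, and the interaction was called for 12 in favour of HCT116. The medians were 0.87 and 0.20. HLA-E, a class I molecule read by natural killer cells, was the member that rose in both, with 0.78 ± 0.04 log2 units in HCT116 and 0.72 ± 0.04 in U-87 MG and a difference of 0.07 (95% interval -0.06 to 0.20). NLRC5, the transactivator of class I genes, went opposite ways. NLRC5 stood at 25.2, 28.1 and 25.5 CPM in the HCT116 KO libraries against 8.19, 8.36 and 9.72 in wild type, and at 35.9, 36.7 and 39.6 CPM in the U-87 MG KO libraries against 72.9, 72.9 and 68.3. Its libraries were apart in each line, with 1.59 ± 0.09 log2 units in HCT116 and -0.93 ± 0.06 in U-87 MG. ERAP1, which trims peptides in the endoplasmic reticulum, had 1.27 ± 0.08 log2 units in HCT116 and -0.31 ± 0.05 in U-87 MG, and HLA-F, a non-classical class I gene, 1.17 ± 0.10 log2 units in HCT116 and -0.25 ± 0.12 in U-87 MG. Among 22 NF-kB subunits and targets, 9 rose in HCT116, against 1 that rose and 4 that fell in U-87 MG, and 11 were called for the difference in favour of HCT116. The medians were 0.65 and -0.20. NFKBIA stood at 73, 72.4 and 73.5 CPM in the HCT116 KO libraries against 45.6, 44.1 and 46.3 in wild type, and at 29.6, 29.4 and 32.7 CPM in the U-87 MG KO libraries against 64.4, 67.5 and 71.6. NFKBIA encodes the inhibitor of NF-kB that NF-kB itself induces. KO was higher in HCT116 and lower in U-87 MG without overlap, with 0.69 ± 0.05 log2 units in HCT116 and -1.15 ± 0.06 in U-87 MG. NFKBIA lies on chromosome 14. CXCL8, the chemokine interleukin 8, also split, with 1.93 ± 0.23 log2 units in HCT116 and -1.17 ± 0.18 in U-87 MG. TNFAIP2, a TNF-induced gene, rose in both, with 0.66 ± 0.05 log2 units in HCT116 and 0.75 ± 0.04 in U-87 MG, although it too lies on chromosome 14. Its HCT116 change was 0.577 and not called by limma on log2(FPKM + 1).

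**Figure D3:**
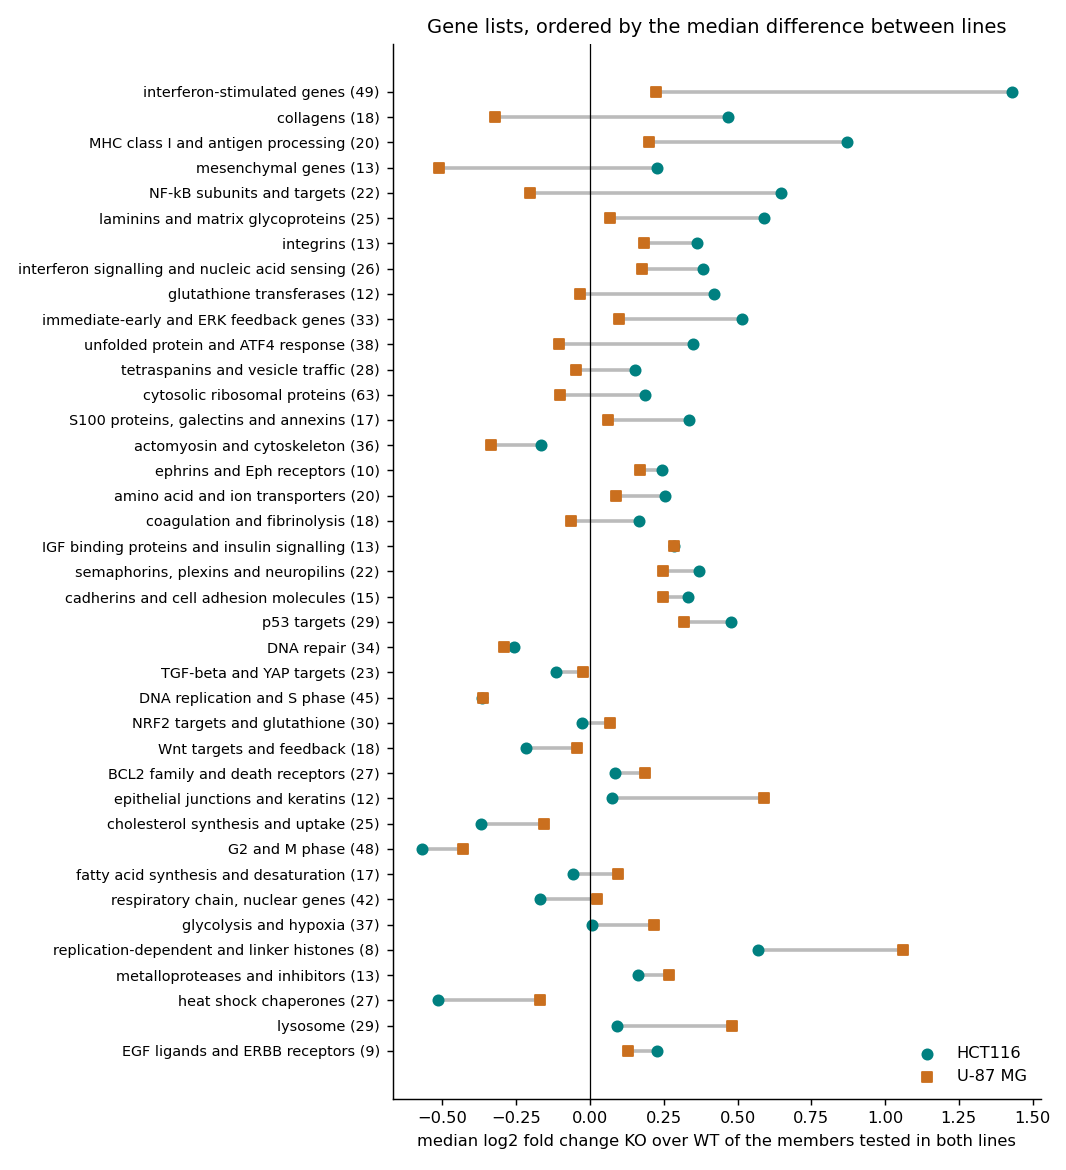
Each row is a gene list with the number of members tested in both lines, and the markers give the median log2 fold change in HCT116 (circles) and U-87 MG (squares), ordered by the median difference. Interferon-stimulated genes stood at 1.43 and 0.23, while G2 and M genes (-0.57 and -0.43) and p53 targets (0.48 and 0.32) had both medians on 1 side of 0.

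Ranked by the smaller change, the leading genes that rose in HCT116 and fell in U-87 MG were LINC00460, ADAM19, USP18, SYTL5, COL13A1, NAV3, APOBEC3C, STC2, EFNB2 and NOTCH3. COL13A1 stood at 45.3, 43.4 and 52.1 CPM in the HCT116 KO libraries against 16.3, 14.2 and 15.9 in wild type, and at 37.1, 32.9 and 37.1 CPM in the U-87 MG KO libraries against 69.5, 73.2 and 72.6. COL13A1 encodes a collagen that spans the membrane. Wild type was the lower group in HCT116 and the higher one in U-87 MG, with 1.61 ± 0.08 log2 units in HCT116 and -1.01 ± 0.06 in U-87 MG and a difference of 2.62 (95% interval 2.41 to 2.84), at an adjusted p of 1.5e-19. ADAM19 stood at 267, 279 and 273 CPM in the HCT116 KO libraries against 127, 122 and 125 in wild type, and at 18.6, 17.2 and 22.4 CPM in the U-87 MG KO libraries against 44.6, 46.3 and 48.6. ADAM19, a membrane metalloprotease, moved by 1.13 ± 0.04 log2 units in HCT116 and -1.26 ± 0.08 in U-87 MG. EFNB2, a ligand of Eph receptors, moved by 0.93 ± 0.06 log2 units in HCT116 and -1.66 ± 0.05 in U-87 MG, and NOTCH3, a receptor of the Notch pathway, by 1.02 ± 0.07 log2 units in HCT116 and -0.90 ± 0.07 in U-87 MG. NAV3, a neuron navigator protein of microtubules, moved by 2.30 ± 0.07 log2 units in HCT116 and -0.99 ± 0.06 in U-87 MG. STC2, the secreted stanniocalcin 2, moved by 0.97 ± 0.05 log2 units in HCT116 and -1.16 ± 0.06 in U-87 MG. LINC00460, a long non-coding RNA, moved by 1.23 ± 0.18 log2 units in HCT116 and -1.29 ± 0.09 in U-87 MG. APOBEC3C, a cytidine deaminase that acts on viral DNA, moved by 1.08 ± 0.06 log2 units in HCT116 and -0.98 ± 0.06 in U-87 MG. Of the 63 genes of this kind, 21 lie on chromosomes 13, 14 and 22, LINC00460, EFNB2, USP18 and APOBEC3C among them, and 42 lie elsewhere. For EFNB2, 36.4% of exon bases lie over an antisense gene.

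Lists of the matrix and of mesenchymal genes also differed between the lines. Of 18 collagens, 4 rose and 1 fell in HCT116 while 2 rose and 6 fell in U-87 MG, with medians of 0.47 and -0.32. Of the 18, 10 were called for the difference in favour of HCT116. The median wild-type level of the 18 was 0.932 FPKM in HCT116, near the minimum of 0.5, and 14.98 in U-87 MG. Of 24 listed mesenchymal genes, 13 were tested in both lines, at median wild-type levels of 3.24 FPKM in HCT116 and 28.6 in U-87 MG. Of the 13, 3 rose in HCT116 and 5 fell in U-87 MG, with median log2 fold changes of 0.23 and -0.51. S100A4 stood at 63.8, 60.2 and 67.6 CPM in the HCT116 KO libraries against 36.4, 36.3 and 36.5 in wild type, and at 4.4, 5.14 and 5.45 CPM in the U-87 MG KO libraries against 21.7, 22 and 16.8. S100A4 is a calcium-binding protein of motile cells, and its difference between the lines was 2.85 (95% interval 2.58 to 3.12). LGALS1, galectin-1 on chromosome 22, moved by 0.71 ± 0.04 log2 units in HCT116 and -0.97 ± 0.03 in U-87 MG. Of 25 laminins and matrix glycoproteins, 12 rose and 2 fell in HCT116 and 6 rose and 5 fell in U-87 MG. LAMA2, a laminin chain, fell in HCT116 and rose in U-87 MG, with -1.38 ± 0.09 log2 units in HCT116 and 1.83 ± 0.07 in U-87 MG. Of 36 actomyosin and cytoskeleton genes, 10 fell in U-87 MG, where 7.52% of all genes tested in both fell. In HCT116 3 rose and 2 fell, beside 7.0% and 3.9% of all genes, so the HCT116 counts were near the background. TPM1, a tropomyosin, had 0.36 ± 0.07 log2 units in HCT116 and -1.15 ± 0.04 in U-87 MG, with 18% of its exon bases under an antisense gene. Among tetraspanins and vesicle genes, CD82 moved by 0.88 ± 0.11 log2 units in HCT116 and -0.88 ± 0.05 in U-87 MG, and 6.93% of its exon bases lie over an antisense gene. IGF1R, the receptor of insulin-like growth factors, moved by 0.72 ± 0.06 log2 units in HCT116 and -0.65 ± 0.09 in U-87 MG, but on log2(FPKM + 1) limma called neither change (0.473 and -0.333).

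The 27 genes that fell in HCT116 and rose in U-87 MG, of which none lies on chromosomes 13, 14 and 22, were led by KRT80, NMU, WLS, ENHO, TLCD1, TGM2, SNHG9, RGS2, HSPA1B and FZD1. KRT80 stood at 5.52, 5.21 and 4.98 CPM in the HCT116 KO libraries against 12.7, 13.3 and 14.4 in wild type, and at 51.2, 53.5 and 53.6 CPM in the U-87 MG KO libraries against 15.5, 15.2 and 13.8. KRT80 is a keratin of epithelial cells. The KO libraries were all below wild type in HCT116 and all above it in U-87 MG, with -1.36 ± 0.10 log2 units in HCT116 and 1.83 ± 0.07 in U-87 MG and a difference of -3.18 (95% interval -3.43 to -2.93). NMU stood at 11.2, 12.2 and 12.6 CPM in the HCT116 KO libraries against 24.4, 23.6 and 26.5 in wild type, and at 5.88, 5.91 and 7.18 CPM in the U-87 MG KO libraries against 1.41, 1.7 and 1.04. NMU encodes the signalling peptide neuromedin U, and moved by -1.04 ± 0.08 log2 units in HCT116 and 2.16 ± 0.18 in U-87 MG. WLS stood at 27.2, 27.2 and 27.5 CPM in the HCT116 KO libraries against 58.8, 53.1 and 63.1 in wild type, and at 400.3, 389 and 388 CPM in the U-87 MG KO libraries against 200.2, 202 and 187. WLS carries Wnt proteins to the cell surface, and moved by -1.09 ± 0.07 log2 units in HCT116 and 1.00 ± 0.04 in U-87 MG. FZD1, a Wnt receptor, moved by -0.92 ± 0.09 log2 units in HCT116 and 0.66 ± 0.06 in U-87 MG. RGS2, which limits signalling by G proteins, moved by -1.45 ± 0.06 log2 units in HCT116 and 0.74 ± 0.08 in U-87 MG. TGM2, the crosslinking enzyme transglutaminase 2, moved by -0.90 ± 0.07 log2 units in HCT116 and 0.84 ± 0.05 in U-87 MG. TLCD1, a membrane protein that affects lipid composition, moved by -0.91 ± 0.09 log2 units in HCT116 and 1.24 ± 0.11 in U-87 MG. ENHO, which encodes the peptide adropin, moved by -1.05 ± 0.15 log2 units in HCT116 and 0.92 ± 0.15 in U-87 MG, and SNHG9, a host gene of a small nucleolar RNA, by -0.76 ± 0.15 log2 units in HCT116 and 1.19 ± 0.23 in U-87 MG. HSPA1B, an inducible HSP70 chaperone, moved by -1.17 ± 0.05 log2 units in HCT116 and 0.70 ± 0.07 in U-87 MG, but 73.6% of its stretches also occur elsewhere, chiefly in HSPA1A, so the pair cannot be told apart. Other loci hold 12.7% of the stretches of SNHG9, and antisense genes cover 21.1% of ENHO and 7.49% of TLCD1.

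**Figure D4:**
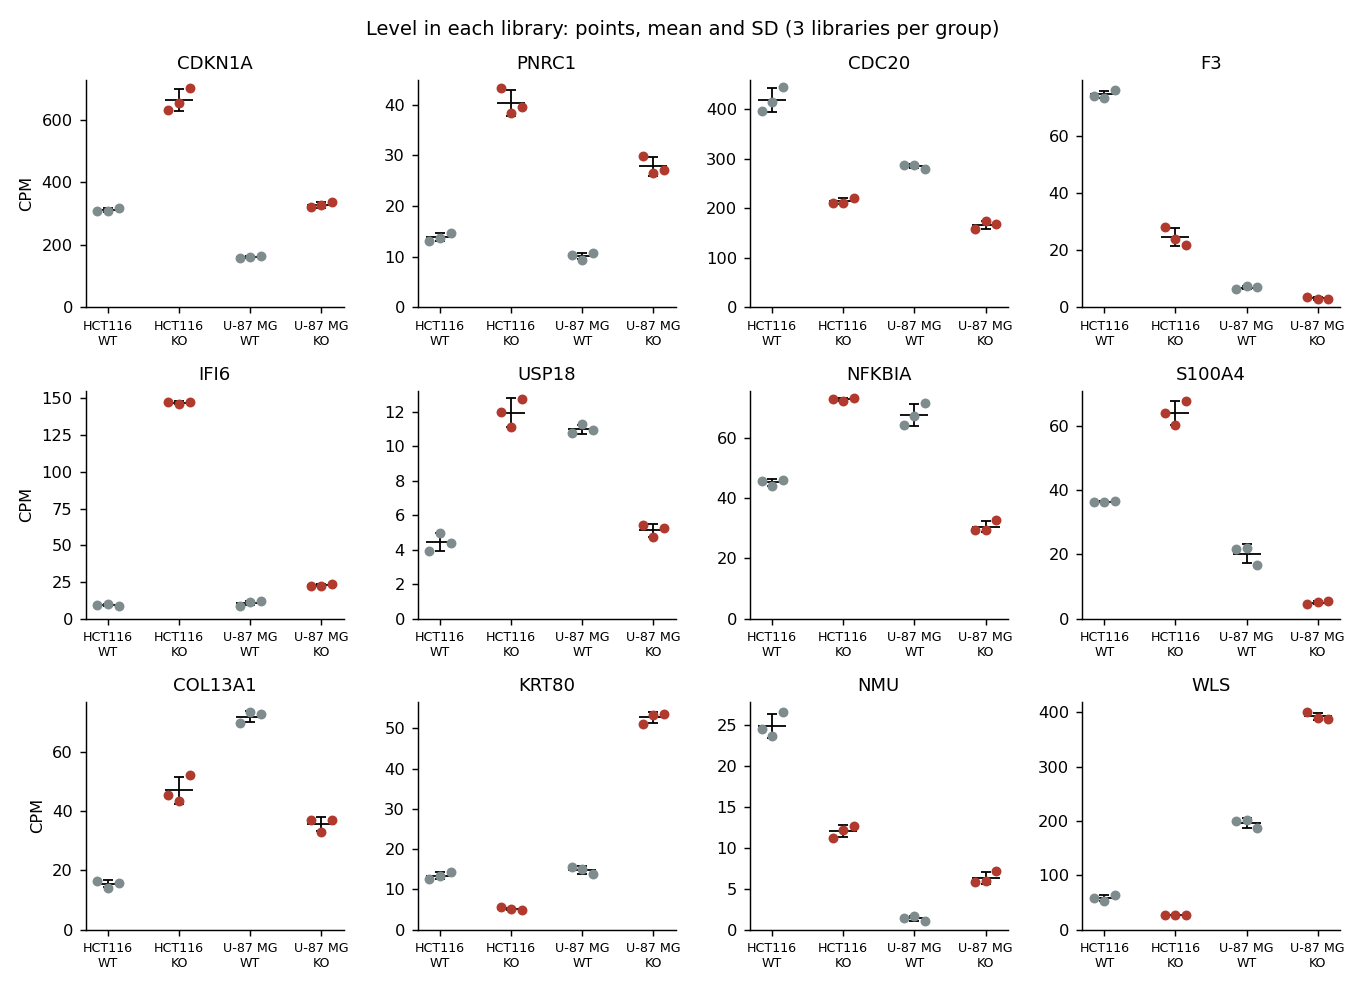
Each panel gives the CPM of 1 gene in all 12 libraries (points), with the mean and SD of the 3 libraries per group. KO is above wild type in both lines for CDKN1A, PNRC1 and IFI6, below it in both for CDC20 and F3, above it in HCT116 and below it in U-87 MG for USP18, NFKBIA, S100A4 and COL13A1, and the reverse for KRT80, NMU and WLS.

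Over all genes, the response differed between the lines for 2639 of 15613 genes tested (16.9%), with 1508 differences in favour of HCT116 (9.66%) and 1131 in favour of U-87 MG (7.24%). Of the 15613, 13475 were above 0.5 FPKM in at least 1 line and could be called. Of the 2639, 2031 had a mean FPKM above 0.5 in both lines and 608 in 1 line. Of the genes above 0.5 FPKM in both lines with a difference in favour of HCT116, 297 were called in HCT116 alone, 538 in U-87 MG alone and 265 in neither, and with a difference in favour of U-87 MG the numbers were 178, 355 and 230. Several of the differences with the smallest p-values came from genes near absent in 1 group. SYTL5, an effector of vesicle traffic, had 1, 3 and 7 counts in the HCT116 wild-type libraries against 750, 813 and 933 in KO, and fell in U-87 MG from 80.2, 72.5 and 71.5 to 37, 34.6 and 35 CPM. The 2 changes were 8.01 ± 0.18 log2 units in HCT116 and -1.07 ± 0.06 in U-87 MG, the first being 8.91 without the third wild-type library, which held 7 of the 11 counts. FOXRED2, a protein of the endoplasmic reticulum on chromosome 22, had 1, 4 and 1 counts in the U-87 MG KO libraries against 41.9, 47 and 54.4 CPM in wild type, while in HCT116 it stood at 43.8, 42.4 and 44.3 and 40.7, 39.8 and 38.4. Its U-87 MG log2 fold change was -9.04 ± 0.22, and -10.04 without the second KO library. GAS6, the ligand of the TAM receptors on chromosome 13, stood at 0.108, 0.192 and 0.182 CPM in U-87 MG KO and 30.4, 30.5 and 31.1 in wild type, and at 49.9, 45.3 and 50.4 and 48.6, 46.8 and 52 in HCT116. SH3BGRL, a small thioredoxin-like protein, had no count in any HCT116 KO library, against 1556 counts in wild type. At a floor of 3 counts over the KO group this is at least 438-fold lower. In U-87 MG it had 0.48 ± 0.04. PARM1, a mucin-like membrane protein, stood at 104, 97.6 and 109.7 CPM in U-87 MG KO and 1.14, 0.87 and 0.899 in wild type, with -0.20 ± 0.07 in HCT116. PKIB, an inhibitor of protein kinase A, rose by 3.47 ± 0.08 in HCT116 and had -0.21 ± 0.06 in U-87 MG.

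Of 32 listed genes of epithelial junctions and keratins, 12 were tested in both lines. Their median wild-type level was 0.83 FPKM in U-87 MG, near the minimum of 0.5, and 35.8 in HCT116. Of the 12, 5 rose in U-87 MG and 3 in HCT116, 2 of them in both, and 1 fell in each line. The median log2 fold changes were 0.59 in U-87 MG and 0.08 in HCT116. CD9, F11R, SLC9A3R1, ABLIM1 and NPDC1 were named for the small p of their difference, and EFNB1 from the ephrin list. All were called higher in U-87 MG and were not called in HCT116. CD9, a tetraspanin, stood at 98, 97.2 and 96.1 CPM in U-87 MG KO and 16, 15.6 and 14.2 in wild type, and at 130.3, 149 and 148 and 131, 134 and 139 in HCT116. Its difference was -2.57 (95% interval -2.74 to -2.41). F11R, the junctional adhesion molecule A, had 0.20 ± 0.04 log2 units in HCT116 and 2.53 ± 0.07 in U-87 MG. SLC9A3R1, the scaffold NHERF1 beneath apical membranes, had -0.22 ± 0.05 log2 units in HCT116 and 1.97 ± 0.05 in U-87 MG. ABLIM1, an actin-binding protein, had 0.10 ± 0.04 log2 units in HCT116 and 3.02 ± 0.09 in U-87 MG, and NPDC1, a neural membrane protein, 0.52 ± 0.06 log2 units in HCT116 and 4.61 ± 0.10 in U-87 MG. EFNB1, an ephrin, had 0.04 ± 0.08 log2 units in HCT116 and 2.56 ± 0.09 in U-87 MG. TGFA, a ligand of the EGF receptor, had 0.23 ± 0.06 log2 units in HCT116 and 2.12 ± 0.04 in U-87 MG, and EREG, another ligand, 1.10 ± 0.05 log2 units in HCT116 and -0.44 ± 0.06 in U-87 MG, so these 2 ligands differed between the lines in opposite senses (differences of -1.88 and 1.55). BTC, another ligand, rose in both, with 2.05 ± 0.15 log2 units in HCT116 and 2.51 ± 0.15 in U-87 MG. SEC31A, a coat protein of vesicles that leave the endoplasmic reticulum, stood at 31.9, 32.6 and 30.6 CPM in HCT116 KO and 126, 133 and 123 in wild type, with 0.20 ± 0.04 in U-87 MG. An overlapping locus holds 35.9% of the stretches of F11R, and antisense genes cover 12.2% of SLC9A3R1.

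The ATF4 and the immediate-early lists had more members risen in HCT116 than in U-87 MG. Of 38 genes that answer unfolded protein or ATF4, 11 rose in HCT116, and 5 rose and 8 fell in U-87 MG, with medians of 0.35 and -0.11. Of the 16 called for the difference in favour of HCT116, 6 lie on chromosomes 13, 14 and 22. CHAC1, which degrades glutathione and is induced by ATF4, rose in HCT116. CHAC1 stood at 43.2, 44.4 and 44.9 CPM in the HCT116 KO libraries against 6.67, 6.78 and 7.08 in wild type, and at 4.04, 3.89 and 5.04 CPM in the U-87 MG KO libraries against 3.52, 4.31 and 3.88. The U-87 MG groups overlapped, and the difference between the lines was 2.56 (95% interval 2.24 to 2.89). JDP2, a repressor of AP-1 on chromosome 14, had 1.22 ± 0.08 log2 units in HCT116 and -0.69 ± 0.11 in U-87 MG, the U-87 MG value being -0.477 and not called by limma on log2(FPKM + 1). Of 33 immediate-early and ERK feedback genes, 13 rose in HCT116, and 5 rose and 3 fell in U-87 MG, with 3 risen in both. EGR1, an immediate-early transcription factor, rose by 1.11 ± 0.06 log2 units in HCT116 and 0.84 ± 0.12 in U-87 MG, DUSP5, an ERK phosphatase, by 0.89 ± 0.05 log2 units in HCT116 and 0.81 ± 0.06 in U-87 MG, and SPRY1, an inhibitor of ERK signalling, by 1.92 ± 0.17 log2 units in HCT116 and 3.23 ± 0.12 in U-87 MG. DUSP4, another phosphatase, split, with 1.43 ± 0.05 log2 units in HCT116 and -0.66 ± 0.05 in U-87 MG. MAFF, on chromosome 22, had 0.49 ± 0.08 log2 units in HCT116 and -1.59 ± 0.12 in U-87 MG. NRP1 and SEMA3A, a receptor and its ligand, both rose in both lines, NRP1 by 2.19 ± 0.12 log2 units in HCT116 and 0.64 ± 0.03 in U-87 MG and SEMA3A by 1.91 ± 0.05 log2 units in HCT116 and 0.72 ± 0.07 in U-87 MG. The difference for NRP1 was 0.285 and not called by limma on log2(FPKM + 1). Of the coagulation list, PROS1, the anticoagulant protein S, rose by 0.88 ± 0.10 log2 units in HCT116 and 0.67 ± 0.05 in U-87 MG, and TFPI, the inhibitor of tissue factor, had 1.19 ± 0.08 log2 units in HCT116 and -0.57 ± 0.05 in U-87 MG. The U-87 MG value of TFPI was just within the fold threshold, and passed it without the first KO (-0.59), second KO (-0.59) or second wild-type library (-0.60). Other loci hold 6.42% of the stretches of PROS1.

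Lysosome genes were the reverse case. Of 29, 12 rose in U-87 MG and 2 in HCT116, with medians of 0.48 and 0.09, and 8 were called for the difference in favour of U-87 MG (8.28% of all genes tested in both were called in that direction). CTSD, the protease cathepsin D, stood at 2332, 2434 and 2431 CPM in U-87 MG KO and 879, 893 and 868 in wild type, with -0.24 ± 0.06 in HCT116, and 23% of its stretches lie in an overlapping locus. GRN, progranulin, rose in both, with 0.70 ± 0.05 log2 units in HCT116 and 0.84 ± 0.04 in U-87 MG. Of 27 heat shock chaperones, 9 fell in HCT116, where 3.9% of all genes tested in both fell. In U-87 MG 2 rose, which was near the background of 7.44%. There 0 were called lower, and 18 of the 27 had a negative log2 fold change. The medians were -0.51 in HCT116 and -0.17 in U-87 MG. HSPA4L, an HSP110 chaperone, had -0.51 ± 0.07 log2 units in HCT116 and 0.79 ± 0.07 in U-87 MG, the HCT116 value lying just beyond the fold threshold without the first KO library (-0.59). Of 25 cholesterol genes, 1 rose and 5 fell in HCT116, where 7.0% of all genes tested in both rose and 3.9% fell. In U-87 MG 1 rose and 2 fell, beside 7.44% and 7.52% of all genes, so the U-87 MG counts were near the background. SREBF2, the transcription factor of the pathway on chromosome 22, had 0.34 ± 0.04 log2 units in HCT116 and -1.05 ± 0.05 in U-87 MG. FADS3, a fatty acid desaturase, rose in both, with 0.65 ± 0.06 log2 units in HCT116 and 0.82 ± 0.07 in U-87 MG, the HCT116 value being 0.537 and not called by limma on log2(FPKM + 1). The 63 genes of cytosolic ribosomal proteins had medians of 0.19 and -0.10, and 7 were called for the difference in favour of HCT116. Over all genes tested in both, 11.3% were called in that direction, so this count was near the background. RPL3, on chromosome 22, had 0.42 ± 0.03 log2 units in HCT116 and -0.93 ± 0.04 in U-87 MG. Pseudogenes share 11.6% of its stretches.

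Position along the genome moved with the response in U-87 MG. The median log2 fold change of 294 genes on chromosome 22 was -0.97 in U-87 MG and -0.05 in HCT116, with 95.2% of the genes lower in U-87 MG KO and 75.2% called lower. On chromosome 14 the medians were -0.46 and 0.02 over 410 genes, with 35.4% called lower in U-87 MG, and on chromosome 13 -0.24 and 0.02 over 211 genes, with 30.3% called lower. The other nuclear chromosomes lay between -0.06 and 0.09 in U-87 MG and between -0.10 and 0.03 in HCT116. Of the 1386 genes tested in both lines that were called for a difference in favour of HCT116, 442 lie on these 3 chromosomes, which hold 915 of the 12239 genes. Without them, 259 genes moved the same way and 69 in opposite directions, the difference was called for 1050 genes in favour of HCT116 and 1088 in favour of U-87 MG, and the correlation over 11324 genes was little changed (Pearson r of 0.19, Spearman rho of 0.30). Interferon-stimulated genes held 3 members on the 3 chromosomes, and the G2 and M list 1.

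**Figure D5:**
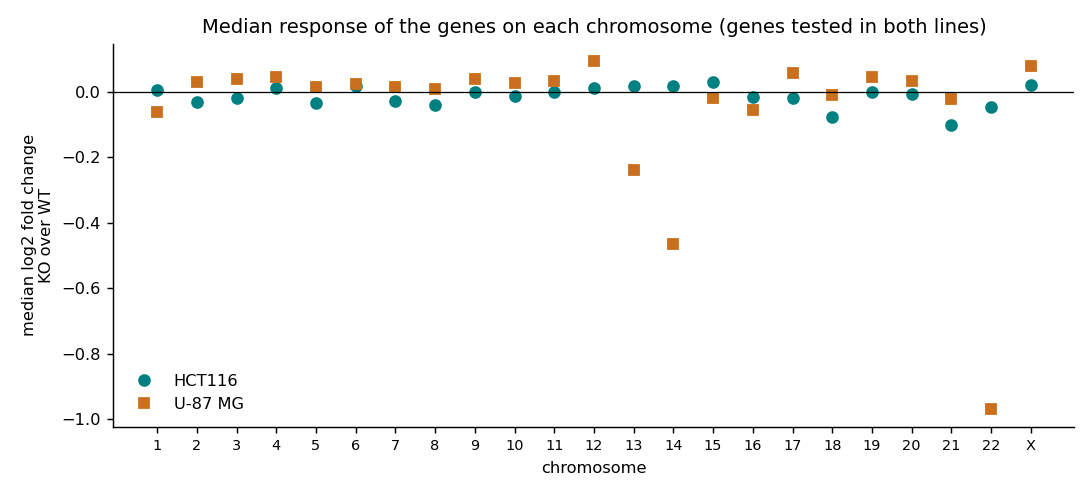
Markers give the median log2 fold change of the genes on each chromosome that were tested in both lines, in HCT116 (circles) and U-87 MG (squares). In U-87 MG, chromosomes 22 (-0.97), 14 (-0.46) and 13 (-0.24) stood apart from the others. In HCT116 the lowest chromosome median was that of chromosome 21 (-0.102).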

How the data were processed

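RNA of HCT116 and U-87 MG cells, GSTO1 KO and wild type, was sequenced as poly(A)-selected stranded libraries per the labels' protocols. The authors deposited raw counts per gene symbol and FPKM values. Per the submitters' processing notes these rest on STAR 2.5.2, featureCounts 1.6.1 and Cufflinks 2.2.1. The strand setting and the handling of shared reads and read pairs are not stated.

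Counts were tested with edgeR 4.0.16 (R 4.3.3), by its robust quasi-likelihood test with TMM scaling, its filter on low counts and Benjamini-Hochberg adjustment over all genes tested. Each line was fitted on its 6 libraries, and the difference between the lines as an interaction in 1 fit of 12. The deposited FPKM set the minimum of 0.5 and served the alternatives, limma 3.58.1 on log2(FPKM + 1) and log2(FPKM + 0.1). DESeq2 1.42.0, other scalings, other thresholds, a replicate block and leaving out each library were also run. Genes were called lower or higher beyond 1.5-fold.

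Named genes were GSTO1, GSTO2, F3, the leading 12 genes of each shared direction, the leading 10 of each opposite direction, the 8 differences of smallest p in each direction, and up to 3 of each list called alike, called oppositely and called for the difference. ISG15 and HERC5 were named for their promoters: up to 3 interferon-stimulated genes that moved alike and 2 that moved oppositely, whose windows held the response element's letters. Families in the closing section were chosen after their values were seen. The genes, lists and tests were chosen with earlier results of these data known. Some genes that this rule names are not reported here. Sequence overlap was computed from GRCh38 annotation, and promoters came from RefSeq. Total counts per library ran from 17814142 to 28097179. On simulated counts for 15613 genes, 50 of 50 same-direction genes and 49 of 50 opposite-direction genes with 2-fold changes were recovered. The changed genes were drawn only from those above a minimum CPM in both lines, and no FPKM minimum was applied. Recovery of genes at low counts, or with changes near 1.5-fold, was therefore not tested. Of 15413 unchanged genes, 0 were called in the same direction, in opposite directions or for the difference between the lines. Calls within each line were not part of these counts.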

Additional observations from a re-analysis of the deposited data

Results flagged for a closer look

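The KO response differed between HCT116 and U-87 MG, by the interaction test, for the genes that follow. Each value in parentheses is the difference of the log2 fold changes, HCT116 minus U-87 MG, and all passed an adjusted p of 0.05 in edgeR's quasi-likelihood test and a difference above 1.5-fold.

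Among genes called in opposite directions, the difference was positive for LINC00460 (2.53), ADAM19 (2.40), USP18 (2.53), SYTL5 (9.09), COL13A1 (2.62), NAV3 (3.30), APOBEC3C (2.07), STC2 (2.14), EFNB2 (2.60), NOTCH3 (1.94), LGALS1 (1.69), EPSTI1 (4.45), IFITM3 (1.59), NLRC5 (2.53), CXCL8 (3.11), NFKBIA (1.85), GDF15 (1.67), JDP2 (1.92), DUSP4 (2.11), S100A4 (2.85), IGF1R (1.38), CD82 (1.78), APOBEC3B (2.5), APOBEC3D (2.28), APOBEC3F (1.80) and APOBEC3G (7.09). It was negative for KRT80 (-3.18), NMU (-3.19), WLS (-2.08), ENHO (-1.96), TLCD1 (-2.15), TGM2 (-1.73), SNHG9 (-1.94), RGS2 (-2.19), HSPA1B (-1.87), FZD1 (-1.57) and LAMA2 (-3.20).

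Among genes called in the same direction in both lines, it was positive for OAS1 (1.97), C10orf10 (1.03), IFIT2 (1.42), IFI6 (2.93), ISG15 (0.91), DHX58 (1.14), TLR3 (1.16), IRF7 (1.51), ACAT2 (2.95), THBS1 (1.73), SEMA3A (1.20), NRP1 (1.56) and C1S (0.78). It was negative for TM7SF2 (-1.21), PBXIP1 (-0.70), SPRY1 (-1.3) and NRG1 (-1.03).

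Among genes called in 1 line, it was positive for FOXRED2 (9.19), GAS6 (7.57), PKIB (3.69), OAS3 (2.14), DDX58 (2.73), IRF9 (2.69), ERAP1 (1.59), HLA-F (1.43), MCM5 (1.21), CDC45 (1.16), POLE2 (1.09), SREBF2 (1.40), CHAC1 (2.56), MAFF (2.08), EREG (1.55), TFPI (1.76), TPM1 (1.52), RPL3 (1.37) and MYC (0.86). It was negative for PARM1 (-6.93), SH3BGRL (-12.34), SEC31A (-2.20), NPDC1 (-4.09), ABLIM1 (-2.91), CD9 (-2.57), F11R (-2.32), SLC9A3R1 (-2.18), TGFA (-1.88), EFNB1 (-2.5), CTSD (-1.68) and HSPA4L (-1.29). The value of SH3BGRL rests on a group with no counts and is no bound on the fold.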

How the results depend on the processing

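Counts of called genes moved with the thresholds and with the pseudocount on FPKM. On the log2(FPKM + 1) scale, limma called 1047 genes in HCT116, and 148 moved the same way in both lines (91 higher) and 51 in opposite directions (31 higher in HCT116). With log2(FPKM + 0.1) these were 1675, 277 (181 higher) and 94 (59), all within 1.5 times the counts reported. With a mean FPKM above 2 the same 5 counts were 1100, 164, 108, 53 and 38, and 15 genes fell in HCT116 and rose in U-87 MG. With no FPKM minimum, 446 genes moved the same way (336 higher) and 147 in opposite directions, 53 of them lower in HCT116. With a fold above 2, 556 genes were called in HCT116, 882 in U-87 MG and 1344 for the difference (785 positive, 559 negative), with 58 in the same direction (51 higher, 7 lower) and 20 in opposite directions (14 and 6). The cause was not tested beyond the construction of these settings. Of the differences between named genes' responses, 3 changed sign, under limma on log2(FPKM + 1): DHX58 (-0.218), NRG1 (0.0227) and C1S (-0.342). Among named genes that scale also ended 4 calls of a difference and added 5, and ended 9 calls in HCT116 and 10 in U-87 MG. With log2(FPKM + 0.1), 6 calls were lost and 3 gained. DESeq2 gave 289 shared and 88 opposite changes and 2616 differences. Without chromosome 22, a setting chosen after seeing the data, these were 280, 82 and 2407, and without chromosomes 13, 14 and 22 they were 259, 69 and 2138.

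Leaving out 1 library gave 1660 to 1742 calls in HCT116, 2212 to 2274 in U-87 MG and 2572 to 2692 for the difference, 285 to 312 genes in the same direction (204 to 226 higher, 77 to 86 lower) and 87 to 97 in opposite directions (61 to 68 and 24 to 30). Replicate numbers gave no clear pairing of the samples. In HCT116 the deviations of same-numbered samples correlated at 0.026, 0.017 and 0.135, and those of other pairs at -0.092 to 0.078. The highest value was for the third samples, and a shared effect in them was not tested apart from the block below. Same-numbered samples of U-87 MG gave -0.0096 to 0.025. A replicate block gave 1680, 2221 and 2641 calls, with 293 in the same direction and 91 in opposite directions. Genes of a few counts, such as SYTL5 and FOXRED2, are limited by depth in the size of their change.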

Other observations

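Further gene families, chosen after their values were seen, moved together or split. Of the MAX partners that oppose MYC, MXD1 rose by 0.77 ± 0.13 log2 units in HCT116 and 1.18 ± 0.09 in U-87 MG and MXI1 by 0.71 ± 0.06 log2 units in HCT116 and 0.62 ± 0.10 in U-87 MG, beside MXD4. The U-87 MG value of MXI1 was 0.56, below the fold threshold, without the third KO library. MXD3 (0.03 ± 0.09 and -0.04 ± 0.08) and MNT (0.36 ± 0.07 and 0.28 ± 0.07) were not called, and MYC itself had 0.07 ± 0.04 log2 units in HCT116 and -0.77 ± 0.06 in U-87 MG. Of the YPEL genes, which encode small zinc-binding proteins, YPEL2, YPEL3 and YPEL5 rose in both lines, YPEL2 by 0.91 ± 0.10 log2 units in HCT116 and 0.99 ± 0.12 in U-87 MG, YPEL3 by 1.26 ± 0.18 log2 units in HCT116 and 0.93 ± 0.17 in U-87 MG and YPEL5 by 1.24 ± 0.08 log2 units in HCT116 and 0.87 ± 0.06 in U-87 MG. The proteases that begin the classical complement pathway also rose in both, C1R by 0.79 ± 0.17 log2 units in HCT116 and 1.14 ± 0.05 in U-87 MG and C1S by 1.63 ± 0.23 log2 units in HCT116 and 0.86 ± 0.06 in U-87 MG. The C1S difference between the lines was 0.78 by counts and -0.342 by limma on log2(FPKM + 1), a scale on which MXD1 (0.395), YPEL2 (0.497), C1R (0.422) and C1S (0.504) were not called in HCT116, nor MXI1 (0.453) and YPEL2 (0.583) in U-87 MG. C1R shares 10.3% of its stretches with another locus.

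Another 4 APOBEC3 cytidine deaminases of chromosome 22 rose in HCT116 and fell in U-87 MG: APOBEC3B with 0.75 ± 0.08 log2 units in HCT116 and -1.74 ± 0.08 in U-87 MG, APOBEC3D with 1.14 ± 0.15 log2 units in HCT116 and -1.13 ± 0.23 in U-87 MG, APOBEC3F with 1.17 ± 0.07 log2 units in HCT116 and -0.62 ± 0.15 in U-87 MG and APOBEC3G with 3.17 ± 0.43 log2 units in HCT116 and -3.91 ± 0.24 in U-87 MG. The HCT116 value of APOBEC3G was 4.60 without the first wild-type library, and the U-87 MG value of APOBEC3F was -0.56, below the fold threshold, without the third KO library. On log2(FPKM + 1), limma did not call APOBEC3D in HCT116 (0.552) or U-87 MG (-0.546), nor APOBEC3F in U-87 MG (-0.51). The 4 share sequence among themselves and with other loci, 85.9% of stretches for APOBEC3D and 26.9% for APOBEC3B, so their counts are uncertain. The chromosome's median in U-87 MG was -0.97, and its part in their falls was not tested.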
